A study of Homo sapiens with 8 samples.

Results

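Annexins are cytosolic proteins that bind membranes rich in acidic phospholipids, such as phosphatidylserine, when calcium rises. Each carries a conserved core that holds the calcium sites and a variable N-terminal tail through which many members bind EF-hand proteins of the S100 family and its relatives. In myeloid cells ANXA1 is an abundant cytosolic protein of mature granulocytes and monocytes that, once released, acts on formyl peptide receptors to limit inflammation, and labelled ANXA5 is the usual probe for phosphatidylserine on dying cells.

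The annexin family is described here by 7 genes, ANXA1, ANXA2, ANXA4, ANXA5, ANXA6, ANXA7 and ANXA11, which are 7 of the 26475 gene symbols in the count table of a bulk RNA sequencing experiment. They were taken by symbol. ANXA1 was chosen from its measured counts in the combination and DMSO libraries, where it had already been seen to be higher after both inhibitors, so its levels in the combination are a description without a test. MOLM-13, a human acute myeloid leukaemia line that carries a KMT2A fusion and is wild type by its label, had received DMSO (the vehicle), VTP50469 (an inhibitor of the Menin-KMT2A interaction), WM1119 (a KAT6A inhibitor, spelled WM119 in the sample labels) or VTP50469 with WM1119, here called the combination. Each of the 4 groups had 2 libraries. The sources used here do not give dose, exposure time or the cultures behind each library, so the p-values measure the spread between these libraries, which may be technical. All 4 groups are 1 line, and no other line was analysed here.

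Library totals ran from 18092906 to 23634468 estimated counts, and all 7 annexins passed the filter on low counts, among 12401 genes tested. Combination replicate 2 stood apart. It had counts in 12972 genes against 14142 to 14544 in the other 7 libraries. Its log2 differences from the DMSO mean fell with transcript length (Spearman rho -0.414 across 11416 genes, which are not independent replicates). WM1119 replicate 1 had a rho of -0.396 and combination replicate 1 of -0.0857, so values are given below for each library and, where it matters, without combination replicate 2. The MOLM-13 identity genes CD33, FLT3 and SPI1 had counts in every library. Of the markers of other cell types, 5 of 7 erythroid, 6 of 8 stromal and endothelial, 3 of 8 T and NK and 0 of 7 B and plasma cell genes were at 0 in all libraries. The summed level of the T and NK list was 22.3 to 25.2 CPM in DMSO, 22.4 to 28.1 with VTP50469, 24.8 to 35.0 with WM1119 and 33.2 to 84.3 in the combination, most of it NKG7, with the defining genes CD3E and CD3G at 0. In the same T and NK list CD3D measured 1.36 to 4.49 CPM over the 8 libraries and CD2 at most 0.868 CPM. In the combination CD3D stood log2 -1.04 and CD2 log2 4.74 from DMSO. The B and plasma list stayed at or below 3.59 CPM.

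The stretch before the transcription start shows how unlike the regulatory DNA of these genes is, and it is printed for the most variable member and for a pair of contrasts. All 7 members matched entries of the RefSeq promoter set on GRCh38.p14, with 11 promoters in all. The windows are the 250 bases before the start, written on the gene's own strand. ANXA1 lies at chr9:73151615-73151864 on the plus strand, ANXA2 at chr15:60397987-60398236 on the minus strand and ANXA5 at chr4:121696981-121697230 on the minus strand. Capitals mark matches, on either strand, to 5 motifs. The TATA box was searched as TATAAA and the other common promoter element as CCAAT. The GC box was searched as GGGCGG, where overlapping matches run together. The core bound by PU.1, a myeloid factor, was searched as GAGGAA and the C/EBP type motif as TTGCNNAA.
ANXA1: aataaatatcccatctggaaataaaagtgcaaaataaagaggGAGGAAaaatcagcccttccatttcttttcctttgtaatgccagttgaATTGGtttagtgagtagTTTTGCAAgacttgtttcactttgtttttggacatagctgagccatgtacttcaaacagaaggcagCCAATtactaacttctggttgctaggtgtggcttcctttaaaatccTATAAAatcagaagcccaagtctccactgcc
ANXA2: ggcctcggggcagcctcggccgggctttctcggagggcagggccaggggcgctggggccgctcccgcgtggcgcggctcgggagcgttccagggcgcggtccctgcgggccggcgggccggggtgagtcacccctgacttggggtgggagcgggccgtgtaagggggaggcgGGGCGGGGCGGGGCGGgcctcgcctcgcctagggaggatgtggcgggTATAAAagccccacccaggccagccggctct
ANXA5: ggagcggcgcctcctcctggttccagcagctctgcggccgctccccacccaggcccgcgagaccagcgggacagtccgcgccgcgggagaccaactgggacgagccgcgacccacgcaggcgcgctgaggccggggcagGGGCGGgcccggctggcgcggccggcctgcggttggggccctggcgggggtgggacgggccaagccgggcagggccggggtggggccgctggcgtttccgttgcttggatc

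The ANXA1 window held 0 CpG dinucleotides and 38.4% G and C, against a median of 11 CpG and 58% over 35116 RefSeq promoters, of which 6.06% had no CpG. The ANXA2 window held 28 CpG and the ANXA5 window 31. In ANXA1 the TATA box began 31 bases before the start, the CCAAT boxes 160 (minus strand) and 77 bases before it, the PU.1 core 208 and the C/EBP type motif 143 (minus strand) bases before it. Among all promoters 10.7% held TATAAA, 32.0% CCAAT, 42.6% the GC box, 23.6% the PU.1 core and 9.05% the C/EBP type motif. ANXA2 also held a TATA box 31 bases before the start, together with 3 overlapping GC boxes. ANXA5 held 1 GC box and none of the other motifs. These matches describe letters in a window and do not show that a factor binds there.

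ANXA1 (chromosome 9, bases 73151865 to 73170393 of hg38, plus strand) had the widest range of the 7 genes relative to its own DMSO level. In CPM (counts scaled to the library total and TMM factor, a measure of level within a gene) it measured 22.3 and 18.5 in the DMSO libraries, 60.0 and 68.5 with VTP50469, 28.6 and 25.6 with WM1119, and 133 and 193 in the combination. The libraries of the 4 groups did not overlap, in the order DMSO, WM1119, VTP50469, combination. The combination mean was 7.99-fold the DMSO level in the fit (a log2 difference of 2.72 without combination replicate 2), and log2 1.34 above VTP50469 and 2.59 above WM1119. Those comparisons include the libraries for which the gene was chosen and carry no test.

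For the single inhibitors, which share their DMSO libraries with the comparison that chose it, ANXA1 was tested. With VTP50469 it was log2 1.66 above DMSO (SE 0.22, 95% interval 1.14 to 2.17) and just missed the threshold across all genes (edgeR quasi-likelihood test, Benjamini-Hochberg adjusted p = 0.0587). The call changed with the combination libraries that entered the fit. ANXA1 passed in 2 of 8 fits that left out 1 library, those without combination replicate 1 or without combination replicate 2. More genes of the table passed in those 2 fits too. It failed in the others, and the difference ranged from 1.53 to 1.80 over all 8. It also passed with DESeq2. With WM1119 the difference from DMSO was 0.41 (95% interval -0.10 to 0.92, edgeR adjusted p = 1). VTP50469 was 1.25 above WM1119 (95% interval 0.74 to 1.76, edgeR adjusted p = 0.147). The combination lay 0.93 above the sum of the 2 separate log2 changes, again without a test.

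**Figure D1:**
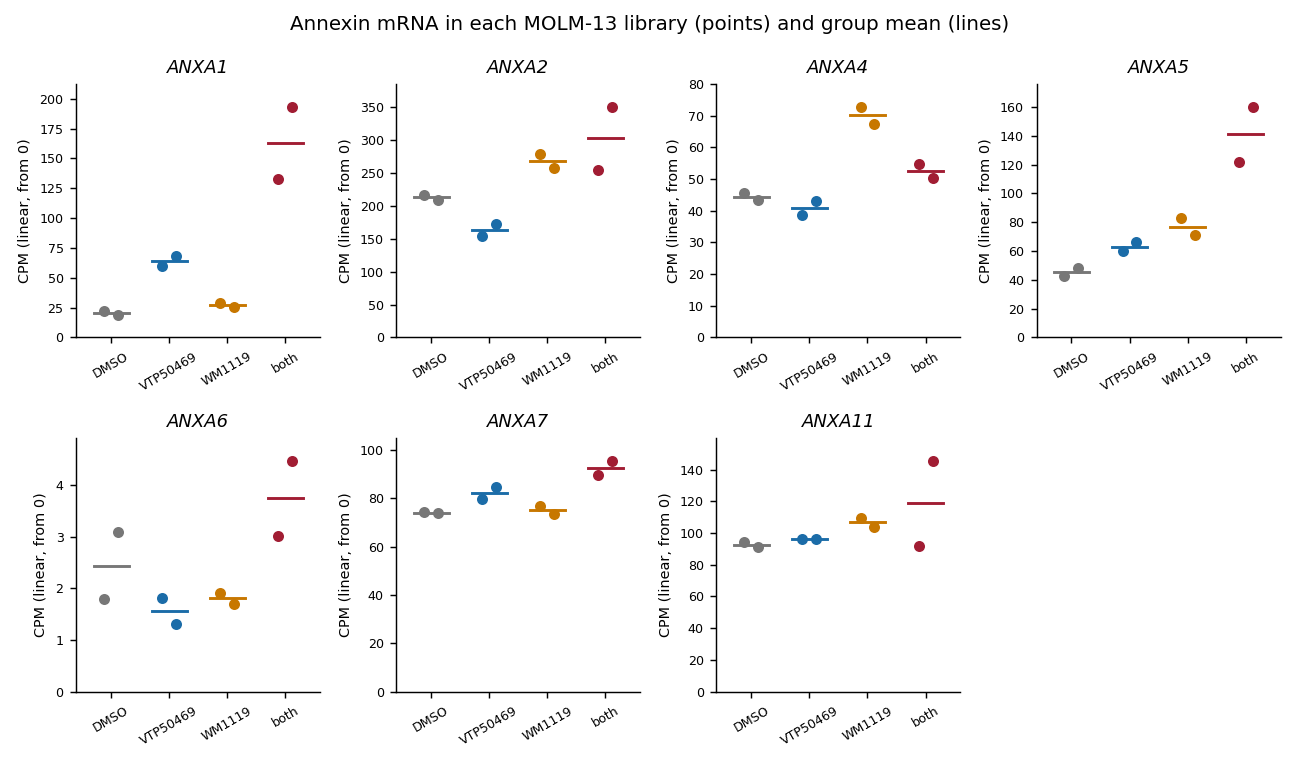
Level of each annexin in CPM (linear axis from 0, a separate scale for each gene) in the 8 libraries, with points for libraries and a line for the mean of each group of 2 (both: the combination). ANXA1 and ANXA5 are highest in the combination, ANXA4 is highest with WM1119, and ANXA2 is lowest with VTP50469.

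ANXA5 (chromosome 4, bases 121667946 to 121696995, minus strand) was the only one of the 6 other members that passed the test in the combination. It measured 42.7 and 48.4 CPM in DMSO, 60.2 and 66.0 with VTP50469, 82.7 and 71.1 with WM1119, and 122 and 160 in the combination. Both libraries of every treatment were above both DMSO libraries, and both combination libraries were above all others. ANXA5, whose protein forms a lattice over exposed phosphatidylserine, rose by log2 1.63 in the combination (SE 0.18, 95% interval 1.20 to 2.06, edgeR adjusted p = 0.00499), as did 5.85% of all genes tested, with 9.29% called in either direction. The change was 1.43 without combination replicate 2. The call was lost without DMSO replicate 1 or without DMSO replicate 2 (highest adjusted p 0.0933), when 69 and 79 genes of the table passed in place of 1152, and in a fit of the DMSO and combination libraries alone.

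With VTP50469 ANXA5 stood 0.47 above DMSO (95% interval 0.05 to 0.89, edgeR adjusted p = 0.650). With WM1119 it stood 0.75 above DMSO (95% interval 0.33 to 1.18, edgeR adjusted p = 0.531). The second passed without combination replicate 1 or without combination replicate 2, where more genes of the table passed as well. The combination was 1.16 above VTP50469 (edgeR adjusted p = 0.0650) and 0.87 above WM1119 (adjusted p = 0.0793), short of the threshold in both. Those 2 comparisons passed with DESeq2. They also passed without combination replicate 1 and without combination replicate 2, but more genes of the table passed in those fits too. These passes therefore say little about ANXA5 itself. Without combination replicate 2 its differences were 0.96 from VTP50469 and 0.69 from WM1119. Without combination replicate 1 they were 1.33 and 1.04. The interaction, the part of the combination change beyond the sum of the 2 separate log2 changes, was 0.41 (95% interval -0.19 to 1.00, edgeR adjusted p = 0.938).

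ANXA2 (chromosome 15, bases 60347134 to 60402883, minus strand), which with S100A10 forms a surface complex that promotes plasmin generation, was placed on opposite sides of DMSO by the 2 inhibitors. It measured 217 and 209 CPM in DMSO, 155 and 173 with VTP50469, 278 and 258 with WM1119, and 255 and 351 in the combination. Both VTP50469 libraries were below DMSO and both WM1119 libraries above it, and the combination overlapped WM1119. The differences from DMSO were -0.38 for VTP50469 (95% interval -0.79 to 0.03, edgeR adjusted p = 0.809) and 0.33 for WM1119 (95% interval -0.08 to 0.74, adjusted p = 1), neither past the threshold. Tested directly, VTP50469 was 0.71 below WM1119 on the log2 scale (estimate -0.71, 95% interval -1.12 to -0.30, edgeR adjusted p = 0.370), which passed only in the fits without combination replicate 1 or without combination replicate 2 and with limma voom. In the combination ANXA2 stood 0.51 above DMSO (edgeR adjusted p = 0.113) and 0.89 above VTP50469 (adjusted p = 0.0966). The first of these was 0.27 without combination replicate 2 and 0.71 without combination replicate 1. In a fit with an offset for transcript length it was 0.86, without passing, and the second was 1.19. The first passed without combination replicate 1, and the second when either combination library was left out. More genes of the table passed in each of those fits too. The second also passed with DESeq2.

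The ANXA2 counts can be split with a retrocopy. ANXA2 was the only member whose counts were not whole numbers, and in all 8 libraries its count and that of ANXA2P2, a processed pseudogene on chromosome 9, summed to a whole number within 0.001. ANXA2P2 held 0.230% to 1.19% of the ANXA2 count. How many ANXA2 reads also match the retrocopy was not measured. No other member had an exon in common with another gene of the table.

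ANXA4 (chromosome 2, bases 69644425 to 69827112, plus strand), an annexin of epithelial and secretory membranes, was highest with WM1119 alone. It measured 45.5 and 43.4 CPM in DMSO, 38.7 and 43.0 with VTP50469, 72.8 and 67.3 with WM1119, and 54.6 and 50.4 in the combination. VTP50469 libraries lay below those without it, both alone and with WM1119, and the combination lay between WM1119 and DMSO. The difference with WM1119 was 0.66 (SE 0.13, 95% interval 0.34 to 0.97, edgeR adjusted p = 0.387), and no gene of the table passed in this comparison (0% called, with 612 genes, 4.94%, at an unadjusted p under 0.05 and 82 called by DESeq2). ANXA4 with WM1119 was among the calls of DESeq2 and of limma voom. In edgeR it passed without combination replicate 1 and without combination replicate 2, where other genes of the table passed as well. VTP50469 against WM1119 was -0.78 (95% interval -1.10 to -0.46, edgeR adjusted p = 0.147), and the combination against WM1119 was -0.42 (95% interval -0.73 to -0.10, adjusted p = 0.204). The combination was 0.24 above DMSO (95% interval -0.08 to 0.56, adjusted p = 0.251).

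The members that differed least were ANXA7 and ANXA11, both linked to vesicle and granule traffic. ANXA7 measured 73.9 and 74.2 CPM in DMSO, 79.5 and 84.6 with VTP50469, 73.6 and 76.7 with WM1119, and 89.6 and 95.4 in the combination. The combination libraries were the highest, 0.32 above DMSO (95% interval 0.04 to 0.61, edgeR adjusted p = 0.132). ANXA11, which tethers RNA granules to lysosomes, measured 91.4 and 94.1 CPM in DMSO, 96.2 and 96.4 with VTP50469, 104 and 110 with WM1119, and 92.0 and 145 in the combination. Its combination libraries were on both sides of the WM1119 libraries, and its difference from DMSO of 0.36 (95% interval -0.15 to 0.86, edgeR adjusted p = 0.278) was 0.0026 without combination replicate 2.

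ANXA6, the annexin with a doubled core, was near the limit of detection. It measured 1.79 and 3.08 CPM in DMSO, 1.81 and 1.32 with VTP50469, 1.92 and 1.69 with WM1119, and 3.01 and 4.46 in the combination. The DMSO libraries overlapped those of each single inhibitor and of the combination, and the lowest value was in VTP50469 replicate 2. The combination was 0.61 above DMSO (95% interval -0.31 to 1.52, edgeR adjusted p = 0.302). The interaction was 1.68 (SE 0.56, edgeR adjusted p = 0.938), in a comparison in which 0% of genes passed, 273 genes (2.2%) had an unadjusted p under 0.05 and DESeq2 called 5.

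**Figure D2:**
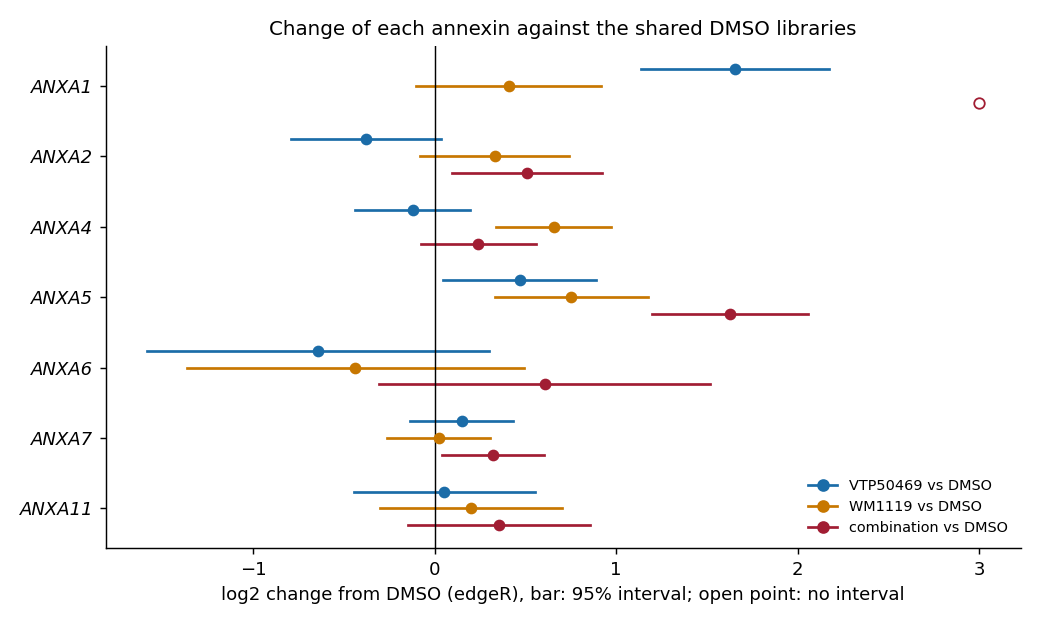
Log2 change of each annexin from DMSO with VTP50469, WM1119 or the combination, as fitted by edgeR over 2 libraries per group. Bars are 95% intervals, the open point for ANXA1 in the combination has none, and all 3 comparisons share the same DMSO libraries. The combination interval of ANXA5 lies above 1 on the log2 scale, and the intervals of ANXA2 for VTP50469 and WM1119 lie mostly on opposite sides of 0.

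Across the family, then, the test called 1 of 6 members in the combination against DMSO, where 9.29% of all genes were called (5.85% higher). It called 0 of 7 with VTP50469, where 0.169% of all genes were called, and 0 of 7 with WM1119, where 0% were. It called 0 of 6 for the combination against VTP50469 (0.395% of all genes), 0 of 6 against WM1119 (1.43%) and 0 of 7 between the single inhibitors (0.0323%). Without combination replicate 1, where the lone combination library is assumed to vary like the other groups, 4 of 6 members passed against DMSO (ANXA2, ANXA5, ANXA7 and ANXA11), with 7756 genes of the table, 4 of 6 against VTP50469 (7222 genes) and 6 of 6 against WM1119 (6915 genes), ANXA4 of these being lower. At an unadjusted p under 0.05, 3 of 6 members were higher in the combination than in DMSO, against 16.9% of all genes. DESeq2, which called more genes in each of these comparisons, called 1 member in the combination (17.7% of the genes to which it gave an adjusted p), 1 with VTP50469 (1.54%), 1 with WM1119 (0.62%), 2 for the combination against VTP50469 (5.3%), 1 against WM1119 (5.53%) and 2 between the single inhibitors (1.12%). Over the 6 members other than ANXA1 the median log2 difference from DMSO was 0.43 in the combination, -0.033 with VTP50469 and 0.27 with WM1119, while that of all genes was 0.010, -0.0042 and 0.0085. Both treated libraries lay above both DMSO libraries for 4 of the 6 members other than ANXA1 in the combination (29% of all genes did so), for 4 of 7 with VTP50469 (27.3%, with 2 of 7 below DMSO against 27.6%) and for 5 of 7 with WM1119 (24.1%). ANXA1 is among those above DMSO with each single inhibitor, and it was chosen with the same DMSO libraries.

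The mean summed level of the family was highest in the combination, with and without ANXA1. Without ANXA1, which was chosen for its level there, the other 6 genes summed to 472 CPM ± 4.41 (SD, n = 2) in DMSO, 448 ± 22.8 with VTP50469, 599 ± 33.4 with WM1119 and 712 ± 135 in the combination. Both VTP50469 libraries were then below DMSO, and those of WM1119 and the combination above it. The combination libraries (616 and 807 CPM) overlapped those of WM1119 (575 and 622 CPM). Summed over all 7 genes, the level was 493 CPM ± 7.09 (SD, n = 2) in DMSO, 512 ± 28.8 with VTP50469, 626 ± 35.5 with WM1119 and 875 ± 178 in the combination. With ANXA1 counted, the VTP50469 libraries overlapped DMSO. Of these reads ANXA1 held 4.13% in DMSO, 12.5% with VTP50469, 4.32% with WM1119 and 18.5% in the combination. The ANXA2 share was 43.3%, 32.0%, 42.8% and 34.6% in the same order, and that of ANXA5 9.26%, 12.3%, 12.3% and 16.1%.

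**Figure D3:**
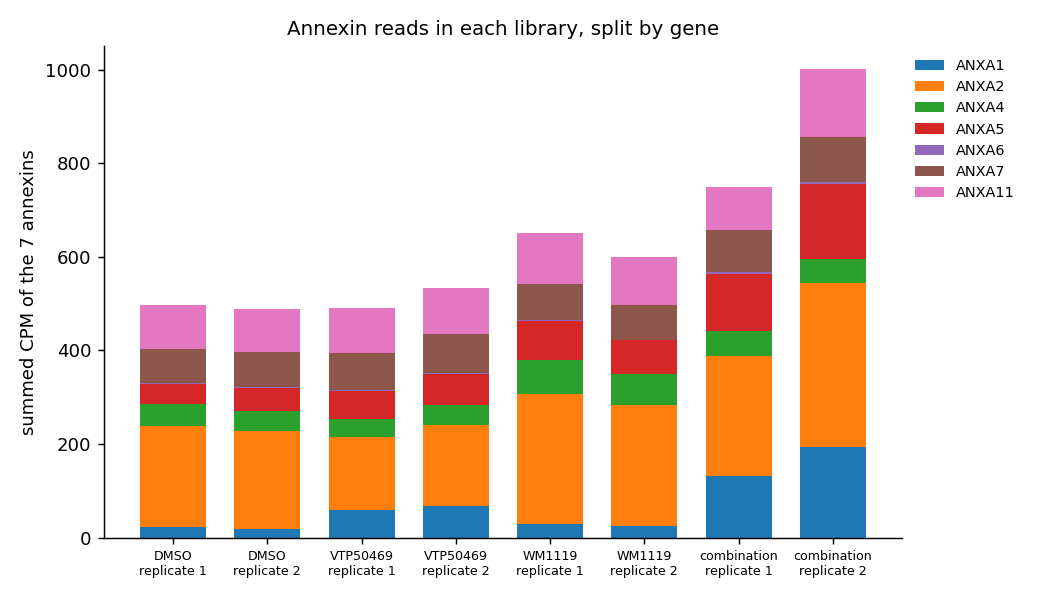
Summed CPM of the 7 annexins in each of the 8 libraries, with each bar split by gene (not corrected for transcript length). ANXA2 takes the most reads in every library, and the blocks of ANXA1 and ANXA5 are tallest in the combination libraries.

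Per kb of exon union in GENCODE release 44, the level in DMSO ran from ANXA7 (25.9 CPM per kb) through ANXA2 (18.4), ANXA5 (15.6), ANXA11 (10.9), ANXA1 (4.58) and ANXA4 (4.02) to ANXA6 (0.442), with no overlap between neighbours. In the combination ANXA5 (48.2 CPM per kb), ANXA1 (36.6) and ANXA7 (32.3) led, with ANXA5 overlapping ANXA1, and ANXA1 overlapping both ANXA7 and the next gene, ANXA2 (26.2). ANXA7 and ANXA2 did not overlap, and ANXA2 was followed without overlap by ANXA11 (13.9), ANXA4 (4.75) and ANXA6 (0.678). By level per kb, ANXA1 exceeded 47.2% of 11416 genes in DMSO, 74.9% with VTP50469, 53.8% with WM1119 and 89.1% in the combination. The order depends on the length used, because the exon union of ANXA2 (11574 bases) is far longer than its MANE Select transcript (1554 bases). With the longest transcript ANXA2 came first in DMSO, at 60.4 CPM per kb, while ANXA6 was last with each length.

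The EF-hand proteins that bind annexin tails rose in part with the combination. Of 7 such genes tested, 3 rose and 0 fell, with a median log2 difference of 0.88, against 5.85% of all genes rising and an all-gene median of 0.01. S100A11, the partner of annexin A1, measured 47.6 and 44.4 CPM in DMSO and 93.1 and 174 in the combination (log2 1.53, edgeR adjusted p = 0.0269). S100A6, which binds several annexins, measured 6.87 and 9.39 CPM in DMSO and 22.4 and 58.6 in the combination (log2 2.31, edgeR adjusted p = 0.0335). S100A4, a partner of annexin A2, measured 49.6 and 55.0 CPM in DMSO and 112 and 304 in the combination (log2 1.99, edgeR adjusted p = 0.0453).

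In each of these the combination libraries were above DMSO, and replicate 2, which also leaned to short transcripts, was the higher one. The part of that lean in these values was not tested. Each of the 3 calls held in 2 of 8 fits that left out 1 library, those without combination replicate 1 or without combination replicate 2, and was lost without any 1 DMSO, VTP50469 or WM1119 library. Without combination replicate 2 the change was 1.03 for S100A11, 1.47 for S100A6 and 1.11 for S100A4. S100A10, the partner of annexin A2, measured 35.0 and 34.8 CPM in DMSO and 40.9 and 87.4 in the combination, and its log2 difference of 0.88 (edgeR adjusted p = 0.148) was 0.24 without combination replicate 2. PDCD6, an EF-hand protein that binds ANXA7 and ANXA11, stood at log2 0.04 (edgeR adjusted p = 0.883), and SRI, sorcin, another partner of ANXA7, at 0.30 (adjusted p = 0.405), with combination libraries on both sides of DMSO in both. Of the Perturb-seq gene programs that the study defined in this line, program 1 lists ANXA1 and ANXA4 together with S100A10, S100A11 and NR3C1. Program 14 lists S100A4 and S100A6, and program 3 lists PDCD6 and SRI. ANXA2, ANXA5, ANXA6, ANXA7 and ANXA11 are in none of the programs.

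**Figure D4:**
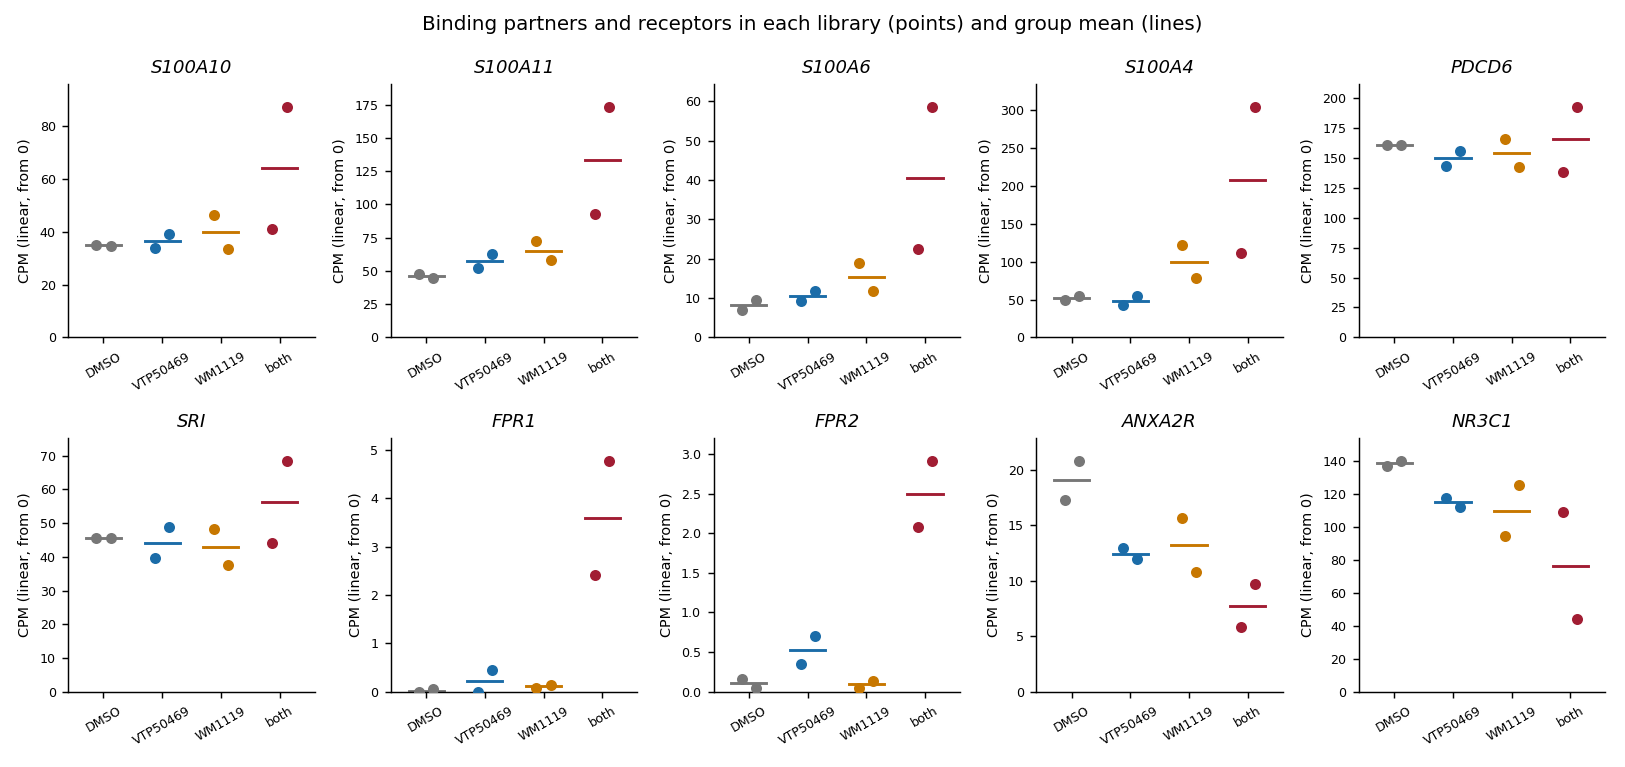
Level in CPM (linear axis from 0, a separate scale for each gene) of annexin-binding EF-hand genes, formyl peptide receptors, ANXA2R and NR3C1 in the 8 libraries, with a line for the mean of each group of 2 (both: the combination). The 2 combination libraries lie far apart for the S100 genes and NR3C1.

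The receptors on which released annexin A1 acts were close to absent from DMSO libraries. FPR1, the formyl peptide receptor, had 0 and 1 counts in DMSO, 0 and 10 with VTP50469, 2 and 3 with WM1119, and 57 and 77 in the combination. Its ratio of combination to DMSO was 133, with a 95% counting interval of 23.6 to 5311 (exact, counting error only, edgeR adjusted p = 0.0308). FPR2, which binds annexin A1 and lipoxin, had 3 and 1 counts in DMSO, 7 and 16 with VTP50469, 1 and 3 with WM1119, and 49 and 47 in the combination (log2 4.53, edgeR adjusted p = 0.0175). FPR3 had 0 counts in DMSO and 10 in the 2 combination libraries together, which is at least 3.32-fold higher when the DMSO group is set to 3 counts, and it failed the filter on low counts and was not tested. FPR1 and FPR2 passed the filter on low counts only through the combination libraries, where they were high. Their p-values and calls are therefore a description and not independent support. Both receptors kept their direction when any 1 library was left out. The FPR1 call was lost without either DMSO library or either WM1119 library, and the FPR2 call without either DMSO library or VTP50469 replicate 2. Over all tested genes 5.85% rose and 3.44% fell. Of the 4 tested genes in the list of annexin A1 receptors, kinase and target enzyme, 2 rose, FPR1 and FPR2, and 0 fell (median 1.96). The others were TRPM7, a channel kinase that phosphorylates annexin A1, at -0.62 (edgeR adjusted p = 0.286), and PLA2G4A, the phospholipase that annexin A1 inhibits, at -0.83 (adjusted p = 0.113).

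ANXA2R, the annexin A2 receptor gene, fell. It measured 17.3 and 20.8 CPM in DMSO, 12.9 and 11.9 with VTP50469, 15.7 and 10.7 with WM1119, and 5.81 and 9.67 in the combination, both below every other library. The log2 change was -1.31 (edgeR adjusted p = 0.0424, with 3.44% of all genes falling), and it passed in 2 of 8 fits that left out 1 library, those without a combination library. The glucocorticoid receptor gene NR3C1, whose ligands raise annexin A1 in leukocytes, measured 137 and 140 CPM in DMSO and 109 and 44.3 in the combination (log2 -0.85, edgeR adjusted p = 0.179). Of 7 genes tested in the list of this receptor and its classic targets, 0 rose and 0 fell (median -0.45), with PER1 at -0.63 (edgeR adjusted p = 0.100), TSC22D3, the leucine zipper target known as GILZ, at -0.45 (adjusted p = 0.143) and SGK1 at 0.84 (adjusted p = 0.163).

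Genes that act beside annexins on membranes moved in both directions in the combination. Over all tested genes 5.85% rose and 3.44% fell there, with a median log2 difference of 0.01, and each list below stands beside these shares. Of 13 membrane repair genes 3 rose and 0 fell (median 0.53), namely EHD1, an endocytic ATPase (log2 0.78, edgeR adjusted p = 0.0235), DYSF, dysferlin, which patches torn membranes (0.78, adjusted p = 0.0272), and CAPN1, a calcium protease (0.53, adjusted p = 0.0461). Each held in 2 of 8 fits that left out 1 library. Of 8 scramblases and flippases, which set phosphatidylserine on either face of the membrane, 1 rose and 0 fell (median -0.35), the scramblase gene PLSCR1 (log2 1.20, edgeR adjusted p = 0.00822). Of 5 receptors and bridging proteins for phosphatidylserine 2 rose and 2 fell (median -0.66). The receptor CD300LF rose (log2 1.55, edgeR adjusted p = 0.00767), as did the bridging protein GAS6 (0.69, adjusted p = 0.04998), while the receptor kinases TYRO3 (-1.60, adjusted p = 0.00808) and AXL (-3.83, adjusted p = 0.0372, and -3.04 without combination replicate 2) fell. PLSCR1, CD300LF and TYRO3 passed in 6 of 8 fits that left out 1 library, and AXL and GAS6 in 2.

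Of 12 other calcium-dependent membrane binders 2 rose and 1 fell (median -0.03), beside 5.85% of all genes rising and 3.44% falling. CPNE7, a copine, fell (log2 -1.96, edgeR adjusted p = 0.00299) and passed in 8 of 8 fits that left out 1 library, while CPNE2 rose (1.40, adjusted p = 0.00341), as did SYTL1, a synaptotagmin-like Rab27 effector (2.43, adjusted p = 0.0111, and 1.78 without combination replicate 2), both in 6 of 8 such fits. Of 7 genes of cell-surface plasminogen activation 1 rose and 0 fell (median 0.22), beside the same shares of all genes. This was SERPINB2, an inhibitor of plasminogen activators, which had 1 count in DMSO and 65 in the combination. The ratio was 64.7 with an exact 95% counting interval of 11.2 to 2596 (edgeR adjusted p = 0.0128). It also passed with VTP50469 (edgeR adjusted p = 0.0457). SERPINB2 passed the filter on low counts only through the VTP50469 and combination libraries, where it was high. Its p-values and calls are therefore a description, like those of FPR1 and FPR2. PLGRKT stood at 1.11 (adjusted p = 0.124) and PLAU at 0.36 (adjusted p = 0.142). Of 10 other annexin genes, retrocopies and ANXA2R, 3 could be tested, and ANXA3, ANXA10, ANXA13 and the retrocopies ANXA2P1 and ANXA2P3 had no counts in any library.

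Summed levels of myeloid maturation markers were highest in the combination, as those of ANXA1 and ANXA5 were, and above DMSO with each single inhibitor, where ANXA2 and ANXA4 lay on opposite sides of DMSO. The summed level of 9 monocyte markers was 602 to 648 CPM in DMSO, 1816 to 2259 with VTP50469, 1554 to 1607 with WM1119 and 6448 to 8520 in the combination, and most of it was LYZ. Of 6 monocyte markers tested in the combination against DMSO, LYZ, ITGAM and CSF1R rose and VCAN fell (log2 -2.80, edgeR adjusted p = 0.0405). Over all tested genes 5.85% rose and 3.44% fell. The defining monocyte gene CD14 was low, between 0.147 and 2.85 CPM over the libraries. It stood log2 3.01 above DMSO in the combination, without passing the threshold. The summed level of 8 neutrophil granule genes was 758 to 843 CPM in DMSO, 1558 to 1776 with VTP50469, 1038 to 1206 with WM1119 and 1974 to 4547 in the combination, with LTF at 0 in every library. All 7 of these genes that were tested stood above DMSO in the combination (median log2 3.18, against 0.01 over all genes). Among them CAMP and PADI4 were low, at most 4.65 and 1.30 CPM. The part of these shifts in the annexin values was not tested, and in bulk RNA more cells of a type and more RNA per cell cannot be told apart.

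By pattern over the 8 libraries, the genes most like ANXA1 were CLEC12A, TMEM45A, NFE2, BPI and MGAT4A. Likeness was the Euclidean distance between centred log2(CPM + 1) values, over 11258 genes with a mean of at least 1 CPM, and it ran from 0.381 for CLEC12A to 0.731 for MGAT4A against a median of 3.31 over all genes. CLEC12A, a lectin receptor of myeloid cells, measured 0.758 and 0.901 CPM in DMSO, 3.97 and 4.96 with VTP50469, 1.41 and 1.08 with WM1119, and 9.71 and 18.2 in the combination. It follows the ANXA1 order of groups at far lower read counts. NFE2, a myeloid and megakaryocytic transcription factor, went from a mean of 2.71 CPM in DMSO to 14.9 with VTP50469, 4.13 with WM1119 and 37.1 in the combination. These neighbours changed with the pseudocount, and 2 of the 5 stayed with a value of 0.5 and 1 with a value of 5. The genes most like ANXA2 were PIPOX (distance 0.269), NLRC4 (0.290) and FERMT3 (0.313), against a median of 1.17. FERMT3, kindlin-3 of leukocyte integrin activation, measured 70.0 and 70.0 CPM in DMSO, 56.3 and 61.2 with VTP50469, 101 and 98.4 with WM1119, and 104 and 142 in the combination, below DMSO with VTP50469 and above it with WM1119 as ANXA2 was.

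The annexins varied between the 2 libraries of a group about as much as other genes did. The median gap between libraries over the 7 members was 0.07 on the log2(CPM + 1) scale in DMSO, 0.15 with VTP50469, 0.11 with WM1119 and 0.45 in the combination, against 0.09, 0.12, 0.19 and 0.49 over all tested genes. The combination gap was largest for ANXA11 (0.65), and 0.54 for ANXA1, and ANXA4 was the only member with the lower value in combination replicate 2 (-0.11).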

How the data were processed

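Bulk RNA of 8 MOLM-13 libraries was analysed from 1 deposited table. The authors deposited expected counts per gene symbol in 26475 rows, not normalized, of which 11.4% to 16.6% of values above 0 per library are not whole numbers. The submitters' processing notes name STAR 2.5.1b, DESeq2 and hg38. The sources used here do not give the counting tool, strand setting or annotation, and the labels and methods differ on medium and kits, so none of these was used.

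Counts were rounded and fitted in R 4.3.3 with edgeR 4.0.16 (filterByExpr, TMM factors, quasi-likelihood F test, 1 fit of 4 groups, 7 comparisons). The filter kept 12401 genes, with a common dispersion of 0.0457 and 4 residual degrees of freedom. Adjusted p-values are Benjamini-Hochberg values over all tested genes, and a gene is called below 0.05. The fit was tested on simulated data with known changes, where it missed more of the smaller ones than of the larger. Lengths and gene positions came from GENCODE release 44, and promoters from RefSeq.

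The members and gene lists were chosen with earlier results of these data known. Named genes were the 7 members, listed partners of annexins, otherwise 3 genes per list, taken by p against DMSO after both inhibitors, and the genes nearest to ANXA1 and ANXA2. ANXA2R, TRPM7, PLA2G4A, FPR3 and GAS6 were also named after their values were seen. Alternatives were DESeq2 1.42.0, limma voom 3.58.1 with library weights, other factors and filters, a length offset, a replicate block, only the groups compared, and each library left out. The crossed block and the MANE Select length were chosen after seeing the data.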

Additional observations from a re-analysis of the deposited data

Results flagged for a closer look

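ANXA2 and ANXA4 were marked because every library of one inhibitor lay on the other side of DMSO from every library of the other inhibitor. For ANXA2 the log2 difference from DMSO was -0.38 with VTP50469 and 0.33 with WM1119. For ANXA4 it was -0.12 with VTP50469 and 0.66 with WM1119. Over all 12401 tested genes 2.19% had VTP50469 below and WM1119 above DMSO in this way. The direct test of VTP50469 against WM1119 did not pass for either gene (edgeR adjusted p = 0.370 for ANXA2 and 0.147 for ANXA4). In the fits that left out 1 library it passed for both without combination replicate 1 and without combination replicate 2. More genes of the table passed in those fits as well.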

How the results depend on the processing

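The number of members called in the combination against DMSO was 1, and 0 in a fit of only those groups, with 0 to 4 over the 8 fits that left out 1 library. For VTP50469 against DMSO it was 0 and became 1 with DESeq2, library size only, no count filter, the crossed block or the length offset, and 3 with limma voom or only the groups compared (0 to 1 with 1 library left out). For WM1119 against DMSO it was 0 and became 1 with DESeq2 and 2 with limma voom (0 to 2). For the combination against VTP50469 it was 0 and became 2 with DESeq2 and 1 with no count filter, the crossed block or the length offset (0 to 4). For the combination against WM1119 it was 0 and became 1 with DESeq2, the crossed block or the length offset (0 to 6). For VTP50469 against WM1119 it was 0 and became 2 with DESeq2, 3 with limma voom and 2 with only the groups compared (0 to 3). For the interaction it was 0 (0 to 3). The highest counts came without combination replicate 1, when far more genes of the table passed as well. Every setting that raised a member count also raised the number of genes passing in the table. For VTP50469 against DMSO 21 genes passed in the main fit, 204 with DESeq2, 1165 with limma voom and 1332 with only the groups compared. For VTP50469 against WM1119 these numbers were 4, 148, 220 and 99. The member counts are therefore not particular to annexins. The cause of these differences was not tested.

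For the order of level per kb, 3 of 7 members held their rank with the longest transcript and 3 with the MANE Select transcript, since the lengths differ. Differences near 0 changed sign. ANXA7 with WM1119 against DMSO was -0.034 with the length offset and ANXA11 had an interaction of -0.016 with library size only. The length offset also moved larger differences, in both directions, in the combination against DMSO. There ANXA2 went from 0.51 to 0.86, ANXA4 from 0.24 to 0.53, ANXA6 from 0.61 to 0.67 and ANXA11 from 0.36 to 0.61. ANXA5 went from 1.63 to 1.42 and ANXA7 from 0.32 to 0.12. With 1 library left out, the log2 difference ranged from -0.77 to 0.015 for ANXA6 and from -0.0075 to 0.040 for ANXA7 with WM1119 against DMSO. Against VTP50469 the combination ranged from -0.057 to 0.58 for ANXA11, and against WM1119 from -0.047 to 0.38 for ANXA2 and from -0.19 to 0.43 for ANXA11, with the lowest value each time without combination replicate 2. VTP50469 against WM1119 ranged from -0.45 to 0.0057 for ANXA6, and the interaction of ANXA11 from -0.25 to 0.38.

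Libraries with the same replicate number in different groups have nothing else in common by their labels, and the correlations of their deviations ran from -0.661 to 0.350 over the 6 pairs of groups. With the replicate block the member counts were 1 for the combination against DMSO and 0 for the other 6 comparisons, and over all genes 528, 15, 0, 2, 65, 0 and 0 passed, in the order of the comparisons above. With the WM1119 numbers crossed, 1906 genes passed in the combination against DMSO and 40 with VTP50469. With 2 libraries per group, precision is limited by the spread between the combination libraries, which differ by a median of 0.49 log2 units over all genes, and for ANXA6 by its low counts.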

Other observations

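ANXA8, an annexin nearly identical to ANXA8L1, had 0 to 12 counts in the 8 libraries and ANXA9 had 4 to 12, so levels of neither were compared between groups. In WM1119 replicate 1 the ANXA8 count of 7.174 and the ANXA8L1 count of 2.826 were both not whole, and ANXA8L1 had no counts in the other 7 libraries.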
